A study of Bos taurus with 24 samples.

Results

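The genes described here are 111 zinc finger genes whose symbol starts with ZNF and a number, out of 275 such genes listed and 24621 genes in all. They were chosen by their counts: a gene entered when every embryo of at least 1 culture had 15 or more exon counts. Of the 275 listed genes, 270 had at least 1 count in some embryo, so most of those left out were detected but low. The limit was met by 58 members in all 3 cultures, by 13 only in vivo, by 9 only with serum and by 6 only without serum. A further 16 met it in vivo and without serum, 8 in vivo and with serum, and 1 in both cultures in vitro. Since the limit is met through the culture in which a gene is high, those counts describe the choice and are no test. Just inside the limit, with 15 or 16 counts in the poorest embryo of their best culture, were ZNF555, ZNF323, ZNF329, ZNF532, ZNF583, ZNF592 and ZNF608. Just outside, with 14, were ZNF274, ZNF331, ZNF383, ZNF384 and ZNF782.

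Most ZNF genes encode proteins with tandem C2H2 zinc fingers, each finger holding a zinc ion and touching a few bases of DNA. Many of them also carry a KRAB domain, which binds the corepressor TRIM28 and through it brings in histone methylation and other silencing activities, mainly at transposable elements and at some imprinted genes. Genes of this KRAB class lie in clusters that grew by tandem duplication, so that neighbours are often relatives. A smaller number of ZNF proteins do other work, in ribosome assembly, in RNA binding, at the spindle or in chromatin complexes.

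The study sequenced RNA from single bovine early blastocysts of the Holstein breed, 24 in all, each embryo being 1 library. Groups were 8 in vivo derived embryos (5 male, 3 female) flushed from superovulated cows, 8 embryos matured and cultured in vitro with fetal bovine serum (3 male, 5 female), and 8 produced in vitro in serum-free medium with EGF, BSA, insulin, transferrin and selenium (5 male, 3 female). Semen of the same bull was used throughout, and all embryos were graded quality 1. The labels do not tie an embryo to its donor cow or to its in vitro experiment, so cow, experiment and culture cannot be told apart.

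Exon counts per embryo ran from 3253051 to 9000447, the deepest library being the male serum embryo B5. Levels are given as CPM, the counts of a gene scaled to the library size and by TMM factors, and 3 counts in an embryo correspond to between 0.333 and 0.922 CPM of its exon total. The summed level of the 8 trophectoderm markers was 7360 to 14690 CPM in vivo, 5016 to 27710 CPM without serum and 324 to 5194 CPM with serum, and CDX2 was near 0 in all 3. Of the 6 tested in vivo against serum, 4 were called higher in vivo, beside 7.34% of all genes, and 0 were called between in vivo and serum-free embryos. The 4 inner cell mass markers summed to 208 to 271, 127 to 401 and 173 to 314 CPM in that order. Of the 2 tested in vivo against serum, 1 was called higher with serum, beside 6.43% of all genes. None of the 3 tested was called between in vivo and serum-free embryos. The 4 primitive endoderm markers summed to 335 to 588, 127 to 404 and 27 to 231 CPM in the same order. Of the 2 tested, 1 was called higher in vivo than with serum and 1 higher than without serum, beside 7.34% and 0.588% of all genes. The oocyte list reached 14.9 CPM in vivo, 102 CPM without serum and 152 CPM with serum. The lists for cumulus, blood and uterine cells stayed at or under 6.31, 26.3 and 29.8 CPM in the same order. In whole embryos, fewer cells of a type and less RNA per cell cannot be told apart, and the part of these markers in the results with serum was not tested.

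Over the 111 members, hierarchical clustering of scaled log2(CPM + 1) placed 4 serum embryos (B2, B3, B5 and B7) in a cluster of their own and the remaining 20 in the second, with complete and with Ward linkage. Other gene sets split the embryos otherwise. Over the 7557 genes tested between cultures, complete linkage set apart B2 alone, and Ward linkage B1, B2, B3, B5 and B7. Over the 1281 genes called between cultures, complete linkage set apart all 8 serum embryos, and Ward linkage B2, B3, B5 and B7. In B2, B3, B5 and B7 the trophectoderm markers summed to 324, 1814, 519 and 454 CPM. The other serum embryos, B1, B4, B6 and B8, had 1593, 1214, 2791 and 5194 CPM. Because the members set them apart, both comparisons with serum over all embryos are also given without B2, B3, B5 and B7. These embryos were picked by the levels of the same members that are refitted. Some shrinkage of fold changes and loss of calls therefore comes with that choice, and those fits are no test. No comparison within or between the sexes was refitted without these 4 embryos. In those with male serum embryos, 1 such male would remain, and the comparison of females with serum was not refitted either.

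**Figure D1:**
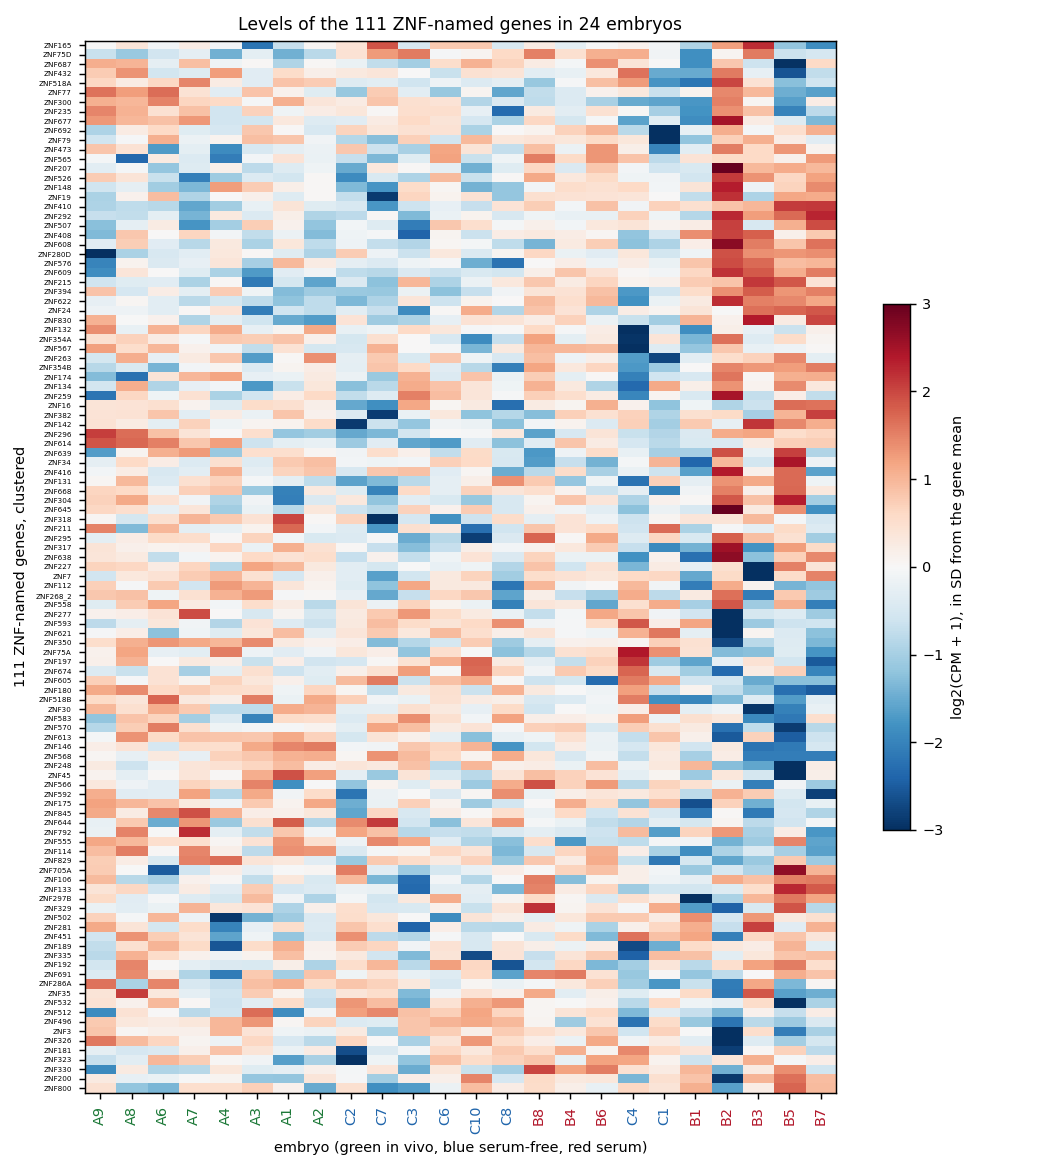
Levels of the 111 ZNF-named genes (rows) in the 24 embryos (columns), both ordered by complete-linkage clustering. Colour is log2(CPM + 1) in standard deviations from the gene mean, red above and blue below, and the serum embryos B2, B3, B5 and B7 stand at the right edge with both the deepest reds and the deepest blues.

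Together the members held 0.396% ± 0.023 (SD, n = 8) of exon counts in vivo, 0.474% ± 0.065 (n = 8) with serum and 0.355% ± 0.029 (n = 8) without serum. The serum embryos covered the widest range, from 0.339% in B1 to 0.55% in B2. Serum-free embryos ran from 0.293% to 0.386%, and in vivo derived embryos from 0.365% to 0.433%. Each embryo had a count for at least 108 of the 111 members, not always the same ones, and each in vivo derived embryo had one for all 111.

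The first comparison asked how embryos produced with serum differed from in vivo derived embryos. A gene was called when its adjusted p-value was under 0.05 (edgeR's quasi-likelihood test, Benjamini-Hochberg over all genes tested) and its fold change at least 2. Of 105 members tested, 13 were called, 12.4%, against 13.8% of all 7339 genes tested. The 13 comprised 5 members higher in vivo and 8 higher with serum, while 7.34% of all genes were called higher in vivo and 6.43% higher with serum. By the adjusted p-value alone 22 members passed, 8 higher in vivo and 14 with serum, beside 28.3% of all genes. The median log2 fold change (in vivo over serum) of the members was -0.05, and that of all genes -0.01. Without B2, B3, B5 and B7 the sign of the members' median turned, to 0.09 with 56.1% positive, beside 49.4% of all genes. Of the 66 members over the count limit in both groups, 5 were called, 1 higher in vivo and 4 with serum, beside 9.7% of the 5743 genes of that kind. The share of members called was thus near that of genes at large, and the values below describe individual genes.

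Among the members higher with serum, ZNF622, which encodes a maturation factor of the large ribosomal subunit, was at 35.9, 47.2 and 66.2 CPM (lowest, median and highest) in vivo and at 73.4, 109 and 188 CPM with serum. The groups did not overlap, and serum-free embryos (26.5, 53.2 and 76.7 CPM) lay with the in vivo derived ones. Its log2 fold change in vivo over serum was -1.21 ± 0.19 (SE, adjusted p = 0.00033). ZNF215, which in people lies in the imprinted region of Beckwith-Wiedemann syndrome, was at 48.6, 104 and 138 CPM in vivo and at 152, 198 and 375 CPM with serum. These groups did not overlap either, and the log2 fold change was -1.21 ± 0.23 (adjusted p = 0.00115). Serum-free embryos were intermediate for ZNF215, at 75.2, 134 and 219 CPM, and did not differ from in vivo derived embryos at this threshold (log2 fold change -0.46 ± 0.22, adjusted p = 0.217).

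ZNF608 and ZNF609, a pair of related genes of which ZNF609 is known to bind the cohesin loader in neural progenitors, were both called. ZNF609 was at 9.11, 26.9 and 44.4 CPM in vivo and at 38.9, 67.6 and 154 CPM with serum, with a small overlap of the groups (log2 fold change -1.67 ± 0.35, adjusted p = 0.00218). ZNF608 was at 3.15, 6.00 and 16.4 CPM in vivo and at 1.82, 17.2 and 92.8 CPM with serum. Both the lowest and the highest of the 16 embryos were serum embryos, the highest being B2 (log2 fold change -1.83 ± 0.58, adjusted p = 0.023). Without B2 the value was -1.25 and the call was lost (adjusted p = 0.0626).

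ZNF394, a protein with SCAN and KRAB domains, had the largest difference in this direction. It was at 7.95, 34.8 and 140 CPM in vivo and at 75.4, 200 and 477 CPM with serum (log2 fold change -1.97 ± 0.54, adjusted p = 0.0117). The groups overlapped through the in vivo derived embryos at the upper end. ZNF354B, a KRAB protein, was at 2.40, 6.78 and 9.81 CPM in vivo and at 8.28, 20.9 and 26.4 CPM with serum (log2 fold change -1.46 ± 0.33, adjusted p = 0.00343). The 2 remaining called members were low: ZNF408, a gene of retinal vascular disease in people, at medians of 4.27 and 7.70 CPM (-1.33 ± 0.48, adjusted p = 0.0426), and ZNF280D at 8.47 and 18.8 CPM (-1.15 ± 0.37, adjusted p = 0.0276). In this comparison ZNF354B, ZNF408 and ZNF280D met the count limit only through the serum embryos, where they are high.

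**Figure D2:**
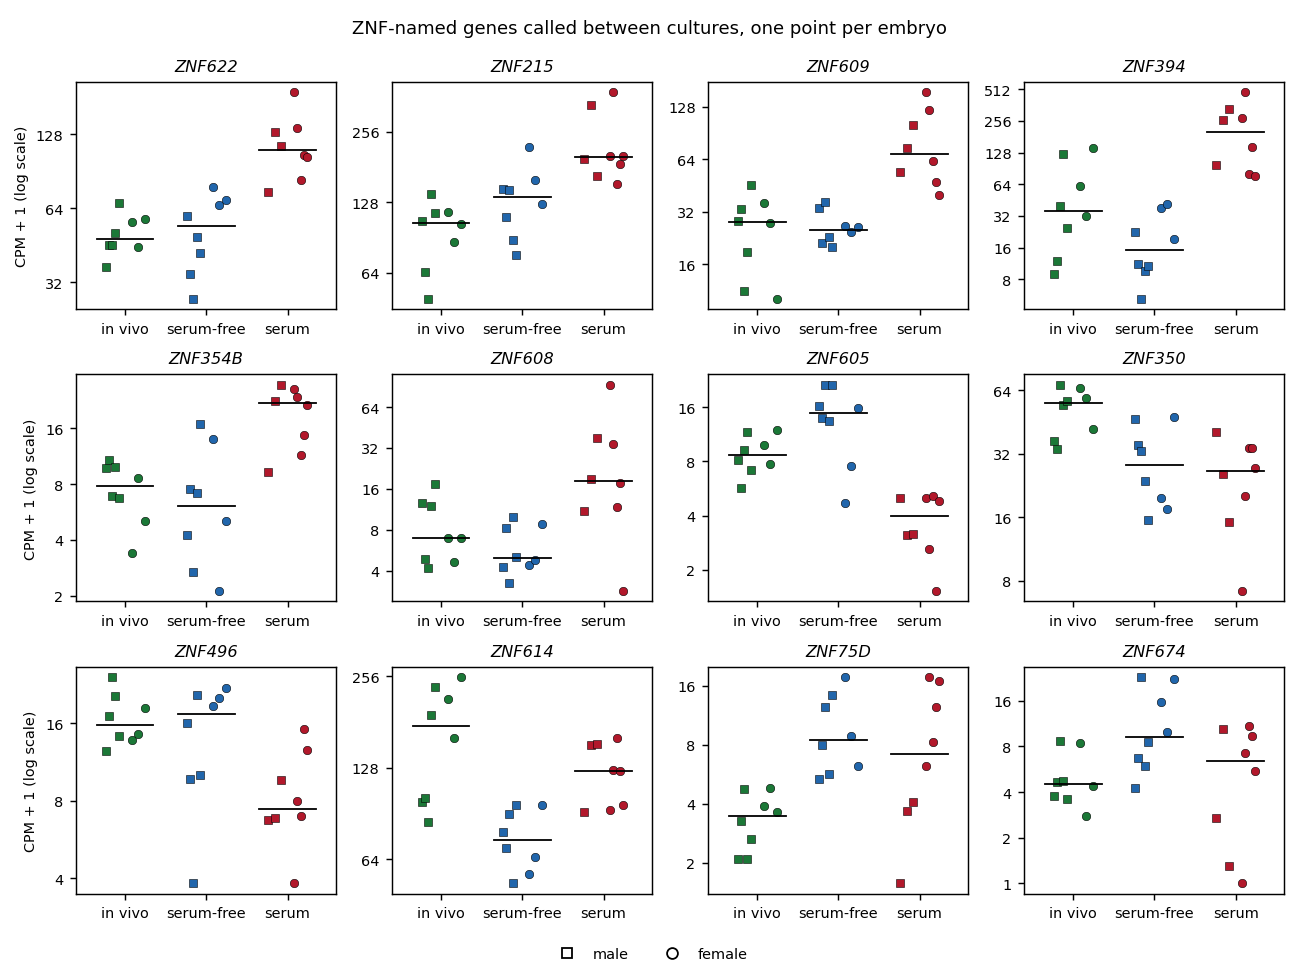
Each panel plots CPM + 1 on a log scale for 1 gene called between cultures, with 1 point per embryo (squares male, circles female), the 3 cultures along the axis and a line at the median of 8 embryos. For ZNF622 the serum embryos lie at 73.4 CPM or above, over the highest in vivo derived embryo at 66.2 CPM, and for ZNF75D every serum-free embryo lies above every in vivo derived one.

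Among the 5 members higher in vivo, ZNF605 was at 4.73, 7.70 and 11.0 CPM in vivo and at 0.524, 2.98 and 4.16 CPM with serum, without overlap (log2 fold change 1.51 ± 0.36, adjusted p = 0.00472). The serum embryo at the bottom, B6, held 3 counts of it. ZNF350, known as ZBRK1, a KRAB protein that represses GADD45A together with BRCA1, was at 32.8, 54.5 and 66.9 CPM in vivo and at 6.15, 25.4 and 39.4 CPM with serum (1.07 ± 0.29, adjusted p = 0.0111). ZNF180 was at medians of 14.2 and 5.88 CPM (1.56 ± 0.51, adjusted p = 0.0275), and the male serum embryo B7 held 1 count of it. ZNF30 was at medians of 22.6 and 11.3 CPM (1.07 ± 0.39, adjusted p = 0.0454). ZNF496, which binds the histone methyltransferase NSD1, was at medians of 14.8 and 6.46 CPM (1.06 ± 0.30, adjusted p = 0.0143). Of the 5, only ZNF605 did not overlap between the groups. In this comparison ZNF605, ZNF180, ZNF30 and ZNF496 met the count limit only through the in vivo derived embryos, where they are high. Their calls therefore partly reflect how the genes were chosen. Among all genes tested, 3.88% were higher in vivo without overlap and 3.24% were higher with serum without overlap, beside 1 and 2 of the 105 members.

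Without B2, B3, B5 and B7, which left 4 serum embryos, 2 of 107 members were called, beside 6.96% of all genes, and neither was among the 13. They were ZNF300 (log2 fold change 3.17) and ZNF34 (1.22), both higher in vivo. All 13 kept their sign in that fit, and ZNF622 and ZNF215 kept adjusted p-values under 0.05 with log2 fold changes of -0.85 (adjusted p = 0.00359) and -0.90 (adjusted p = 0.00806). ZNF605 kept a log2 fold change of 1.37 (adjusted p = 0.0523), and ZNF180 had 0.85 (adjusted p = 0.0985). ZNF394 went to -0.83 (adjusted p = 0.327) and ZNF608 to -0.34 (adjusted p = 0.703). A loss of a call in that fit also comes with fewer embryos.

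When embryos were left out singly, ZNF622, ZNF215, ZNF609, ZNF394, ZNF354B and ZNF605 were called in all 16 fits. The call of ZNF180 was lost without A8 or B3 (adjusted p = 0.0639 and 0.0501). That of ZNF350 was lost without A6, B2 or B7, and that of ZNF280D without A2 or A9. ZNF496 lost it in 5 of the 16 fits (without A3, A4, B1, B2 or B5), ZNF408 in 9 and ZNF30 in 11.

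**Figure D3:**
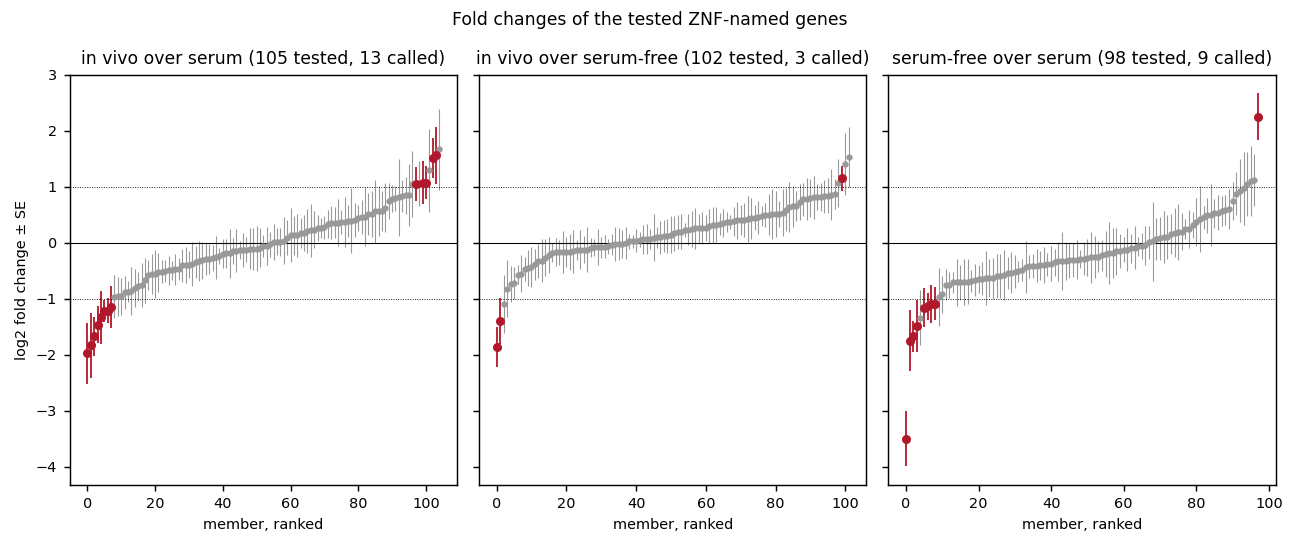
Log2 fold change ± SE of every member tested, ranked, in the 3 culture comparisons, with the first culture named over the second. Called members are red and dotted lines mark a fold change of 2. The points reach from -1.97 to 1.67, from -1.86 to 1.53 and from -3.50 to 2.25 from left to right.

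Embryos produced without serum were then compared with in vivo derived embryos. Of 102 members tested, 3 were called, 2.94%, against 2.2% of all 7314 genes. A single member was higher in vivo (0.588% of all genes were), and 2 were higher without serum (1.61% of all genes). By the adjusted p-value alone 4 members passed, beside 5.82% of all genes. The median log2 fold change in vivo over serum-free was 0.16 over the members and -0.00 over all genes, and 62.7% of members against 49.7% of all genes had a positive value. Over the 74 members that met the count limit in both groups the median was 0.12, beside -0.02 for all genes so chosen. The in vivo derived embryos are the same as in the comparison with serum, so the pair of comparisons are not independent.

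ZNF75D was at 1.10, 2.46 and 3.83 CPM in vivo and at 4.38, 7.43 and 16.8 CPM without serum. The groups did not overlap, and the log2 fold change was -1.86 ± 0.36 (adjusted p = 0.004). It met the count limit through the serum-free embryos, the in vivo derived embryos holding 4 to 19 counts each. Serum embryos spanned both groups, from 0.571 to 16.7 CPM. ZNF674 was at 1.80, 3.52 and 7.68 CPM in vivo and at 3.24, 8.26 and 22.0 CPM without serum, with overlap (-1.41 ± 0.41, adjusted p = 0.0465). It too met the count limit only through the serum-free embryos. Its call was lost in 10 of the 16 fits that left out 1 embryo, with adjusted p-values from 0.0254 to 0.0972 over the 16.

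ZNF614 was the member called higher in vivo, at 84.2, 175 and 254 CPM against 52.4, 73.3 and 96.0 CPM without serum (log2 fold change 1.15 ± 0.22, adjusted p = 0.00424). The groups overlapped through 1 in vivo derived embryo, the male A3 at 84.2 CPM. With serum it was at 90.8, 124 and 160 CPM, between the other cultures. ZNF614 and ZNF75D kept their calls in all 16 fits without 1 embryo. ZNF227 passed by adjusted p-value alone, with medians of 67.3 and 38.1 CPM (0.81 ± 0.23, adjusted p = 0.0424).

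The 2 cultures in vitro were also compared directly. Of 98 members tested, 9 were called, 9.18%, against 8.91% of all 7181 genes. A single member was higher without serum (5.36% of all genes) and 8 were higher with serum (3.55% of all genes). By the adjusted p-value alone 12 members passed, 1 higher without serum and 11 with serum, beside 16.3% of all genes. The median log2 fold change serum-free over serum was -0.29 over the members and -0.02 over all genes, and 31.6% of members had a positive value against 48.7% of all genes. Among the 59 members over the count limit in both groups the median was -0.28 and 25.4% were positive, beside -0.03 and 47.3% for all genes of that kind. Without B2, B3, B5 and B7 the median of the members was -0.13, with 35.3% positive, beside -0.01 and 48.7% for all genes.

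ZNF394 again differed most. It was at 4.22, 14.3 and 40.2 CPM without serum and at 75.4, 200 and 477 CPM with serum, without overlap (log2 fold change -3.50 ± 0.49, adjusted p = 0.00104). In vivo derived embryos spread across both, from 7.95 to 140 CPM. It was the 1 member still called without B2, B3, B5 and B7, with a log2 fold change of -2.37 (adjusted p = 0.0357), when 1.19% of all genes were called.

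ZNF609 was at 19.1, 24.2 and 35.2 CPM without serum, below all serum embryos (-1.67 ± 0.28, adjusted p = 0.00256). ZNF622 was lower by -1.13 ± 0.24 on the log2 scale (adjusted p = 0.00748) with a small overlap. ZNF605 was the member higher without serum, at 3.73, 13.9 and 20.4 CPM (2.25 ± 0.42, adjusted p = 0.00398). It met the count limit here only through the serum-free embryos. Its order over the cultures was serum, in vivo and serum-free, from low to high, and the last pair differed by -0.74 ± 0.31 (in vivo over serum-free, adjusted p = 0.171).

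The other called members were ZNF408 (-1.75 ± 0.55, adjusted p = 0.036), ZNF354B (-1.48 ± 0.46, adjusted p = 0.0358), ZNF304 (-1.16 ± 0.35, adjusted p = 0.0312), ZNF576 (-1.10 ± 0.34, adjusted p = 0.0357) and ZNF133 (-1.09 ± 0.30, adjusted p = 0.0216). ZNF304 and ZNF133 are KRAB repressors, and both had their highest level in the deepest library, B5, at 96.6 and 79.3 CPM. Calls were lost without B5, C7 or C10 for ZNF304 and without B5 or C3 for ZNF133. ZNF408, ZNF354B and ZNF576 lost theirs in 6, 8 and 6 of the 16 fits, and they met the count limit here only through the serum embryos. Leaving out the female serum-free embryo C10 took the count of called members from 9 to 5. All 9 kept their sign without B2, B3, B5 and B7. ZNF609 was then at -0.97 (adjusted p = 0.0448), ZNF605 at 2.10 (adjusted p = 0.0709) and ZNF622 at -0.79 (adjusted p = 0.134). ZNF408, ZNF354B, ZNF304, ZNF576 and ZNF133 were at -1.23, -1.01, -0.66, -0.55 and -0.84, none with an adjusted p-value under 0.05.

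The members were also grouped by what their proteins do. In the list for ribosome, RNA and mitosis, 6 of 8 genes were members. All 6 were tested in each culture comparison. ZNF622 was the only one called, in vivo against serum and serum-free against serum, beside 13.8% and 8.91% of all genes. None was called between in vivo and serum-free embryos, beside 2.2% of all genes. ZNF207, a spindle and splicing protein, was at 147, 179 and 203 CPM in vivo and 175, 244 and 447 CPM with serum (-0.49, adjusted p = 0.0398), under the fold limit, and without B2, B3, B5 and B7 its value was -0.18 (adjusted p = 0.399).

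Of the 12 genes of chromatin complexes, 9 were members. With the sexes pooled, 8 were tested in vivo against serum, 9 in vivo against serum-free and 7 serum-free against serum. None was called, beside 13.8%, 2.2% and 8.91% of all genes in that order. ZNF410, known for controlling the nucleosome remodeler gene CHD4, was at 59.7, 78.5 and 121 CPM in vivo and at 102, 142 and 223 CPM with serum. Its log2 fold change was -0.87 ± 0.18 (adjusted p = 0.00237), under the fold limit, and that of CHD4 was -0.67 ± 0.16 (adjusted p = 0.00565). In the fit without the 4 serum embryos set apart these were -0.57 (adjusted p = 0.0338) and -0.46 (adjusted p = 0.00983). A link between ZNF410 and CHD4 was not tested. ZNF518B of the same list also passed by adjusted p-value alone, but higher in vivo (0.79 ± 0.24, adjusted p = 0.0189). The median log2 fold change in vivo over serum of the 8 members of this list tested was 0.31. In the list of pluripotency and developmental regulators, 6 of 13 genes were members. Of the 6 tested in vivo against serum, ZNF608 and ZNF609 were called, beside 13.8% of all genes. Of the 5 tested serum-free against serum, ZNF609 was called, beside 8.91%. None of the 6 tested was called between in vivo and serum-free embryos, beside 2.2%. In vivo against serum, ZNF292 passed by adjusted p-value alone (-0.78, adjusted p = 0.0275). Its value without the same 4 serum embryos was -0.04 (adjusted p = 0.913). Of the list for heterochromatin and imprint protection only ZNF350 was a member, while ZNF274 lay just under the count limit.

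The corepressors with which KRAB proteins work are no members and were set beside them. Of 17 tested in vivo against serum, 2 were called, beside 13.8% of all genes, and both were higher with serum. They were ATF7IP, a partner of the methyltransferase SETDB1 (-1.01 ± 0.33, adjusted p = 0.027), and UHRF1, which recruits DNMT1 to replicating DNA (-1.06 ± 0.29, adjusted p = 0.0112). TRIM28, the KRAB-binding corepressor itself, was at 75.2, 85.3 and 139 CPM in vivo, 111, 144 and 320 CPM with serum and 72.1, 102 and 136 CPM without serum. It was higher with serum under the fold limit (-0.85 ± 0.22, adjusted p = 0.00756). CBX5, CHD4, HDAC2 and DNMT1 also passed by adjusted p-value alone, higher with serum. HDAC1 passed in the other direction, higher in vivo (0.66 ± 0.13, adjusted p = 0.00122). Between in vivo and serum-free embryos only UHRF1 was called, higher without serum (-1.80 ± 0.30, adjusted p = 0.00152), beside 2.2% of all genes. Between serum-free and serum embryos only ATF7IP was called (-1.21 ± 0.35, adjusted p = 0.0261), beside 8.91% of all genes. In the fit without B2, B3, B5 and B7, UHRF1 kept its call in vivo against serum (-1.03, adjusted p = 0.044), TRIM28 was at -0.65 (adjusted p = 0.0329), and ATF7IP lost its call in both comparisons (-0.32, adjusted p = 0.342, and -0.54, adjusted p = 0.352).

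Because KRAB genes lie in clusters, the members were ordered along the cattle genome with RefSeq's gene order of assembly ARS-UCD2.0, which differs from the build of the counts and was used only for which genes neighbour each other. There, 106 of the 111 members were found, 100 by symbol and 6 by synonym. Runs of at least 3 members, with no more than 3 other protein-coding genes between successive members, held 26 members in 6 runs. This definition was set after values had been seen, so the runs are described without a test.

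In the run of ZNF45, ZNF227, ZNF235, ZNF112 and ZNF180, all 5 genes had a positive log2 fold change in vivo over serum (0.21 to 1.56, median 0.57) and in vivo over serum-free (0.42 to 0.86, median 0.81). In the run of ZNF613, ZNF432, ZNF614 and ZNF350, all 4 were positive in both as well (medians 0.79 and 0.85). ZNF613 missed the threshold in each (1.06 ± 0.40, adjusted p = 0.0542, and 0.88 ± 0.27, adjusted p = 0.0584). Both comparisons share the in vivo derived embryos, and reads that fit more than 1 relative were not counted. The longest run, of ZNF146, ZNF565, ZNF567, ZNF382, ZNF566, ZNF568 and ZNF829, had mixed signs. Against serum 3 were positive and 4 negative (median -0.03), and against serum-free embryos 5 positive and 2 negative (median 0.33). The run of ZNF16, ZNF34 and ZNF7 had 2 positive and 1 negative against serum (median 0.04), as had that of ZNF197, ZNF35 and ZNF502 (median 0.22). In the run of ZNF200, ZNF263, ZNF75A and ZNF174, 1 was positive and 3 were negative against serum (median -0.19). Against serum-free embryos the medians of these last runs were 0.30, 0.01 and -0.02 in that order.

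Over all 6 runs, 2 members were called higher in vivo than with serum and none lower, while among the 74 members tested outside runs 2 were called higher and 7 lower. Of all genes 7.34% were called higher in vivo and 6.43% higher with serum. The median log2 fold change in vivo over serum was 0.25 inside runs and -0.14 outside, and against serum-free embryos it was 0.40 inside and 0.06 outside. Without B2, B3, B5 and B7, 1 member inside runs and 1 outside were called against serum, both higher in vivo, beside 6.96% of all genes in either direction. The medians were then 0.26 inside and -0.05 outside. The genes of the runs from ZNF45 to ZNF180 and from ZNF613 to ZNF350 were all positive (medians 0.54 and 0.66). Each of the other runs held both signs in that fit.

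**Figure D4:**
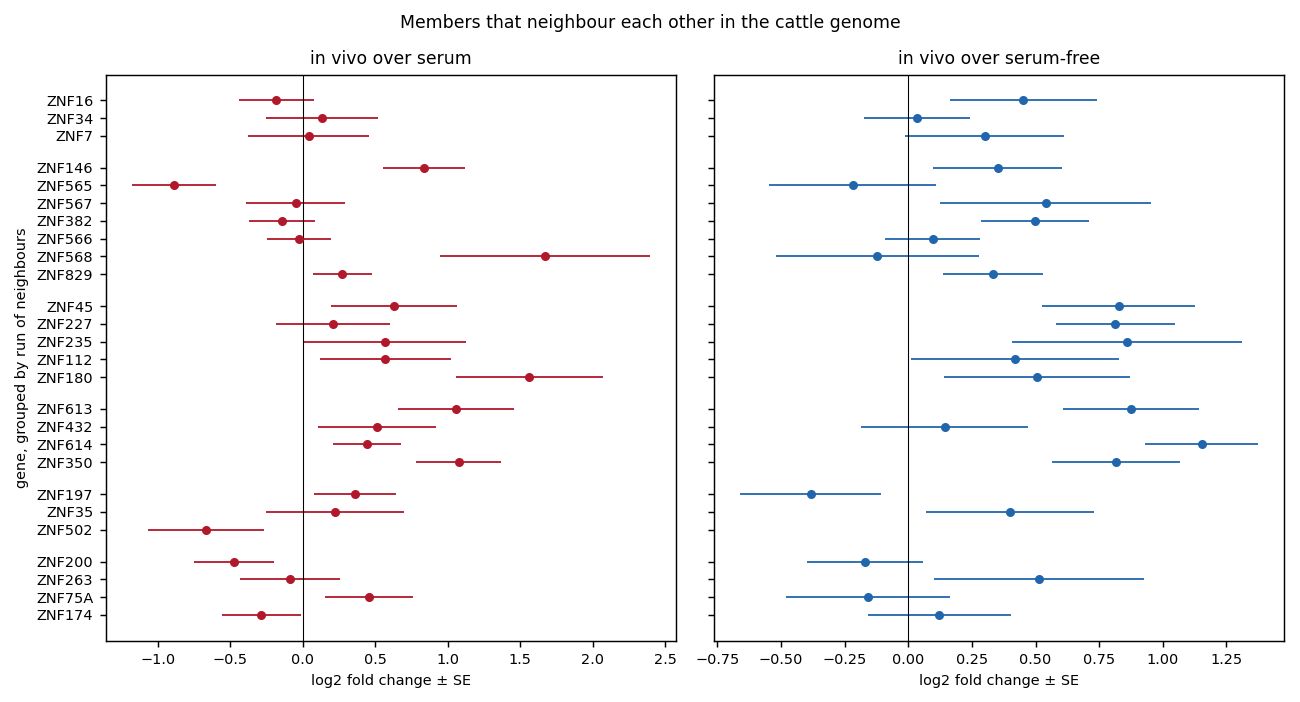
Log2 fold change ± SE of the members in the 6 runs of neighbouring genes, in genome order within each run, for in vivo over serum (left) and in vivo over serum-free (right). All 9 genes from ZNF45 to ZNF180 and from ZNF613 to ZNF350 lie to the right of 0 in both panels. In the left panel each of the other runs has genes on both sides of 0.

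Comparisons within each sex asked whether the culture differences were present in male and in female embryos. Among males (5 in vivo, 3 with serum), 11 of 106 members were called in vivo against serum, 10.4%, beside 13.3% of all genes. Higher in vivo were ZNF568, ZNF235, ZNF112, ZNF432, ZNF114 and ZNF146, and higher with serum were ZNF622, ZNF215, ZNF609, ZNF394 and ZNF410. Of all genes, 8.03% were called higher in vivo and 5.31% higher with serum. None of the 6 members higher in vivo was called with the sexes pooled. The limit of 15 counts was met only through the in vivo derived males for ZNF568, ZNF235 and ZNF112. Of the 78 members over it in both groups, 8 were called, 3 higher in vivo and 5 with serum, beside 11.7% of all genes of that kind.

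ZNF568, which in the mouse represses a placental transcript of Igf2, had 19 to 103 counts in the male in vivo derived embryos. The male serum embryos B1, B5 and B7 held 6, 0 and 0 counts (log2 fold change 4.72 ± 1.09, adjusted p = 0.0127), although B5 was the deepest library. A female serum embryo, B3, also held 0, and the other females with serum held 19 to 47 counts. ZNF112 had 49 to 140 counts in male in vivo derived embryos and 7, 34 and 15 in male serum embryos (2.47 ± 0.54, adjusted p = 0.00921). Female serum embryos held 56 to 139 counts of ZNF112. ZNF235 was at 17 to 67 counts against 3, 5 and 10 (2.69 ± 0.75, adjusted p = 0.0284). For ZNF432 the log2 fold change was 1.88 ± 0.56 (adjusted p = 0.0354), for ZNF114 1.60 ± 0.49 (adjusted p = 0.0382) and for ZNF146 1.31 ± 0.40 (adjusted p = 0.0401).

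Among females (3 in vivo, 5 with serum), 0 of 108 members were called in edgeR's quasi-likelihood test, beside 0.418% of all genes. An unadjusted p-value under 0.05 was reached by 19 members, 17.6%, and by 21.1% of all genes. The exact test of edgeR called 4 members, ZNF215, ZNF354B, ZNF622 and ZNF75D, beside 5.74% of all genes, and DESeq2 called those and ZNF608 and ZNF609, beside 7.19%. The fold changes of ZNF622 and ZNF215 in females (-1.25 ± 0.31 and -1.15 ± 0.31) were near those in males (-1.12 ± 0.26 and -1.29 ± 0.34). The difference between the sexes was tested as an interaction: 0 of 109 members passed by the adjusted p-value, as did 0% of all genes, and 7 members (6.42%) had an unadjusted p-value under 0.05, beside 5.16% of all genes, the same test in DESeq2 calling 0 members. ZNF112 had the smallest adjusted p-value among the members (interaction 2.56 ± 0.73, adjusted p = 0.664), and ZNF568 had the largest value (4.32 ± 1.56, adjusted p = 0.789).

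The male result depended on single embryos. With 1 embryo left out, between 5 and 19 members were called, 19 without B1, 5 without A2 or A8, and 6 without A1, A4, B5 or B7. As shares these ran from 4.72% to 17.9% of members, beside 8.16% to 21.6% of all genes in the same fits, the highest of both without B1. In females 4 were called without B2, 3.64%, beside 5.34% of all genes.

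Between serum-free and in vivo derived embryos, 1 of 105 members was called in males, ZNF75D (-2.03 ± 0.47, adjusted p = 0.0452, beside 0.966% of all genes), and 1 of 108 in females, ZNF614 (1.53 ± 0.26, adjusted p = 0.0435, beside 0.304%). The call of ZNF614 in females was lost in each of the 6 fits without 1 embryo. That of ZNF75D in males remained only without C1, of 10 such fits. As an interaction, 0 of 110 members passed (0% of all genes), with 1 under an unadjusted p-value of 0.05, beside 6.59% of all genes, and 0 calls of members by DESeq2.

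**Figure D5:**
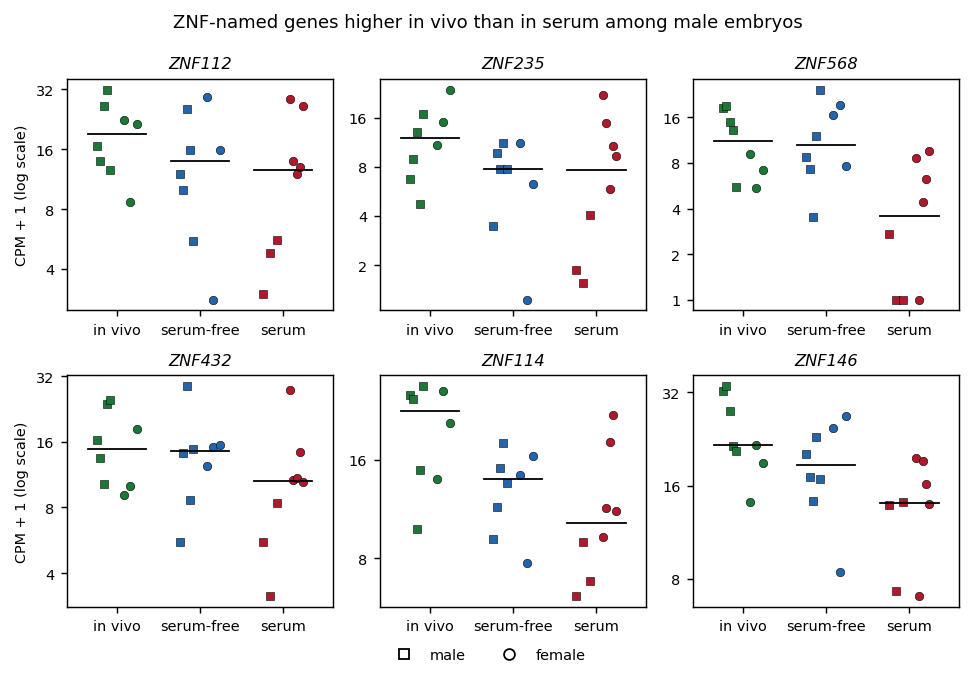
CPM + 1 on a log scale for the 6 members called higher in vivo than with serum among males, 1 point per embryo (squares male, circles female), with a line at the median of the 8 embryos of a culture. Among the serum embryos, the 3 males lie below the 5 females for ZNF112, ZNF235, ZNF432 and ZNF114.

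Male and female embryos of the same culture were compared last. None of the members was called by edgeR's quasi-likelihood test, 0 of 106 in vivo, 0 of 98 with serum and 0 of 101 without serum, beside 0.653%, 0.173% and 0.139% of all genes. An unadjusted p-value under 0.05 was reached by 9, 8 and 8 members (8.49%, 8.16% and 7.92%), beside 13.5%, 6.24% and 8.01% of all genes. With serum, ZNF112 (-2.35 ± 0.58, adjusted p = 0.259), ZNF235 (-3.02 ± 0.77, adjusted p = 0.305), ZNF165 (-3.54 ± 0.98, adjusted p = 0.383) and ZNF75D (-2.39 ± 0.69, adjusted p = 0.428) were lower in males without overlap of the sexes, as were 8 of the 98 members in all and 3.5% of all genes. Of these 4, DESeq2 called all, beside 1.29% of all genes, and the exact test of edgeR called ZNF112 and ZNF235, beside 0.823%. In the other 2 cultures neither tool called a member. Male serum embryos numbered 3, and 2 of them, B5 and B7, were among the 4 set apart by clustering of the members.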

How the data were processed

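Single early blastocysts were sequenced after SMARTer cDNA amplification. The authors mapped trimmed paired reads to UMD3.1 with CLC Genomics Workbench and deposited raw counts of uniquely mapping exon reads per gene, so reads shared by near-identical ZNF paralogs are missing or uncertain, and overlapping genes cannot be told apart. Groups came from the labels, and all 24 columns matched an embryo. From these counts, edgeR 4.0.16 (R 4.3.3) with TMM and its quasi-likelihood test was run on the groups compared, keeping genes with 15 counts in every embryo of at least 1 group. Called means adjusted p under 0.05 and a fold change of 2 or more. SEs are approximate, the log2 fold change over the root of F. Members named are those called (up to 12 a direction), role list members and those at the limit. ZNF300, ZNF34, ZNF227, ZNF613 and ZNF165 were named after their values were seen. The members and lists were chosen with earlier results of these data known. Alternatives included DESeq2 1.42.0. The fits were tested on simulated data. Embryo numbers do not pair embryos: over 7 same-numbered pairs a comparison, correlations of deviations ran from -0.123 to 0.083. Protein and promoter sequences, and a split by KRAB or SCAN domain, were not analysed here.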

Additional observations from a re-analysis of the deposited data

Results flagged for a closer look

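Levels of the 26 members called in any comparison, and the members' share of counts, were screened in each culture for an embryo far from the other 7, by the gap to its nearest neighbour over the whole range against Dixon's 95% limit for 8 embryos. Of 81 groups screened, 4 held such an embryo, each time the highest. Chance gives about 1 in 20 where levels are normally distributed, which was not checked for these CPM. In serum embryos, B2 was at 92.8 CPM for ZNF608, the next embryo being at 36.9 CPM (gap 0.615), and at 26.7 CPM for ZNF432, the next at 13.4 CPM (gap 0.541). In serum-free embryos, C4 was at 27.9 CPM for ZNF432, the next at 14.5 CPM (gap 0.572), and C1 at 33.9 CPM for ZNF30, the next at 18.9 CPM (gap 0.658).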

How the results depend on the processing

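Of the 25 fold changes of called members, 206 of 274 values under other settings kept the call, 68 lost it and 0 changed sign. Leaving out 1 embryo kept it in 332 of 400 fits. DESeq2, edgeR's exact test and DESeq2's size factors kept all 25 calls. Serum embryos were mostly female and those of the other cultures mostly male. With sex as a covariate, 22 of the 25 calls were kept and 3 lost, ZNF408 in both comparisons with serum and ZNF674. The count in vivo against serum, 13, was 8 with no filter beyond 1 count, 5 with the limit of 15 met in both groups, 22 by adjusted p alone, 10 without B2 and B5 (7 of them among the 13) and 2 without B2, B3, B5 and B7 (0 among the 13); the last 2 settings were added after seeing the data. The count in vivo against serum-free, 3, was 1 with the limit in both groups and 1 with counts thinned to the smallest total. The count serum-free against serum, 9, was 5 with the limit in both groups, 4 without B2 and B5, and 1 without B2, B3, B5 and B7. Fits without 1 embryo gave 10 to 17, 2 to 4 and 5 to 10 calls in that order. In males they gave 5 to 19 against serum and 0 to 1 against serum-free, in females 0 to 4 against serum and 0 in all 6 fits against serum-free. DESeq2 and the exact test called 17 and 16 in males against serum, 6 and 4 in females, 3 and 2 in males against serum-free, and 4 and 2 between the sexes with serum. The causes were not tested, beyond the fewer genes or embryos some settings hold.

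With the embryo number as a replicate block, 7, 2 and 1 members were called in the 3 culture comparisons. The numbers do not pair embryos, each embryo correlating best with its own number in 1, 0 and 0 of 7 pairs.

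Depth limits the lowest members: 3 counts are 0.333 to 0.922 CPM, depending on the embryo. Intervals across embryos measure these samples only, since cow and experiment are not given, and the library preparation amplifies by PCR without molecular identifiers.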
